A study of Homo sapiens with 10 samples.

Results

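The 45 genes described here encode semaphorins (20 genes), their plexin and neuropilin receptors (9), ephrins (7), and the Notch receptors and their ligands (9). They were taken by name and do not hold every gene of these families, since EFNB1, PLXNA3 and PLXNB3 are not among them. Among 161934 peaks of accessible chromatin, 468 carried the Ensembl identifier of one of these genes, and the genes were set beside 18981 protein-coding genes whose strand could be determined. The peaks came from ATAC-seq, in which the Tn5 transposase inserts sequencing adapters into open DNA. The study used MDA-MB-231, a human cell line from a triple-negative breast tumour, mesenchymal and basal in character. It held 5 ARID1A knockout libraries and 5 control libraries of the same line, 10 in total. ARID1A is a subunit of the SWI/SNF chromatin remodelling complex. The labels name no other allele or agent, and do not say how many knockout clones were used or whether the replicates were separate cultures. The deposited list covers the series as a whole and has 0 columns with a value per library. A difference between knockout and control, the depth of each library and a replicate error were therefore not measured here, and no test was run. The values below are positions, lengths and counts of peaks.

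Semaphorins are secreted or membrane-bound ligands first known as axon guidance cues. They act through plexins, whose cytoplasmic part controls small GTPases and thereby the cytoskeleton and integrin adhesion, and the secreted class 3 members mostly need a neuropilin as co-receptor. Ephrins are ligands held on the cell surface, by a GPI anchor (ephrin-A) or a transmembrane domain (ephrin-B), that signal to Eph receptor tyrosine kinases on a touching cell. Notch receptors are cleaved after binding a Jagged or Delta-like ligand on a neighbouring cell, and the freed intracellular domain acts in the nucleus with RBPJ. All 4 families are also studied in tumours, for cell migration, vessel growth and cell fate.

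A start peak is a peak within 1000 bases of the outermost 5' boundary of the gene in RefSeq. An alternative start is a transcript start that the list names for the gene and that lies more than 1000 bases from that boundary. Counts of alternative starts use only these. Where single starts or promoters are described, RefSeq starts at such distances are also called alternative, whether or not the list names them. The sequences below are the 250 bases before a start, 5' to 3' on the strand of the gene, from RefSeq promoters of build GRCh38.p14. The promoter table matched 38 of the 45 genes, with 59 starts. The first set shows SEMA3C and SEMA6D, whose longer or only start-associated peak lay at an alternative start, then PLXNA4, an alternative start without a peak, and EFNB2, the start with the longest peak. Capitals mark CpG dinucleotides, which are dense in the CpG island promoters of vertebrates.
SEMA3C outermost start, chr7:80922390-80922639, minus strand, 2 CpG: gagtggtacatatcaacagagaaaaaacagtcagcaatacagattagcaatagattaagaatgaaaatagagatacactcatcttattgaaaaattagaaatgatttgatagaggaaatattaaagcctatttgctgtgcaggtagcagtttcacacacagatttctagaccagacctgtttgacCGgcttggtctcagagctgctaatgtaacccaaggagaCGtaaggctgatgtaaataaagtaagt
SEMA3C alternative start, chr7:80919052-80919301, minus strand, 39 CpG: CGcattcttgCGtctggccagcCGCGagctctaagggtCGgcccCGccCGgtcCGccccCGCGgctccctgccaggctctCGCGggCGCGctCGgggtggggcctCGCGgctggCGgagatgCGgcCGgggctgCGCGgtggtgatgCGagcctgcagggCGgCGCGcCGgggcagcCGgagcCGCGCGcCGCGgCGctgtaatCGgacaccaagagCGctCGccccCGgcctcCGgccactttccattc
SEMA6D outermost start, chr15:47183839-47184088, plus strand, 9 CpG: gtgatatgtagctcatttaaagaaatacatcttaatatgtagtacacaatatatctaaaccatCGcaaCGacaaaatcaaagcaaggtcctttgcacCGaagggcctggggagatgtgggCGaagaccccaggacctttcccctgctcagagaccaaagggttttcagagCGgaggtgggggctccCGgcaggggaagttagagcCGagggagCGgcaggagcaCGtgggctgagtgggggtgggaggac
SEMA6D alternative start, chr15:47717255-47717504, plus strand, 29 CpG: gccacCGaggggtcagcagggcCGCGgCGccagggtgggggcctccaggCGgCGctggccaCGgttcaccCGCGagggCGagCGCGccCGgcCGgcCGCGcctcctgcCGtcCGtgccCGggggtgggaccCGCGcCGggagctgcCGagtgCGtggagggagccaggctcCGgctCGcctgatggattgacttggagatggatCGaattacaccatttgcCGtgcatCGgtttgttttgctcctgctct
PLXNA4 alternative start, chr7:132576471-132576720, minus strand, 23 CpG: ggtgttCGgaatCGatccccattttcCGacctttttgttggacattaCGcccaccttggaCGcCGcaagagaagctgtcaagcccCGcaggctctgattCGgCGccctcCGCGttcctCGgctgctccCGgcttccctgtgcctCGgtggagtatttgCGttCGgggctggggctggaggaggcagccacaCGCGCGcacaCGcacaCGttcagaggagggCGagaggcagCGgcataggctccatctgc
EFNB2 outermost start, chr13:106535663-106535912, minus strand, 40 CpG: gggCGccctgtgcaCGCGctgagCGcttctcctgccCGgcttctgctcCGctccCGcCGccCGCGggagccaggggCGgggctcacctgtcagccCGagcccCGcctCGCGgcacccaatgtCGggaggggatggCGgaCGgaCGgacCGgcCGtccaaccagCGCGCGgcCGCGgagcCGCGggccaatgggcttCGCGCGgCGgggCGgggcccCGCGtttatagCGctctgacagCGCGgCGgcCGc

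The second set shows the 2 promoters among the 59 that held the AP-1 motif TGANTCA, with the match in capitals. AP-1 is a dimer of FOS and JUN proteins.
NOTCH4 outermost start, chr6:32224068-32224317, minus strand: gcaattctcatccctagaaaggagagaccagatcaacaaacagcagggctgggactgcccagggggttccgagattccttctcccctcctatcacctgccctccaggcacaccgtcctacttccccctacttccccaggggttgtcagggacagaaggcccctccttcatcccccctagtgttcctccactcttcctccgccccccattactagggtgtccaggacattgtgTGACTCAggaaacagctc
PLXNC1 alternative start, chr12:94262369-94262618, plus strand: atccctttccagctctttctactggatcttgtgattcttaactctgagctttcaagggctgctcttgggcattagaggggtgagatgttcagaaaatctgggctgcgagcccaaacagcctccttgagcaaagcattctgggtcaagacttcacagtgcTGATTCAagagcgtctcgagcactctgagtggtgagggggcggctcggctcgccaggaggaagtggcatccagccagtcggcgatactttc

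Most guidance and Notch genes had a peak at or near their outermost start. A start peak was present at 41 of the 45 genes (91.1%, exact 95% interval 78.8 to 97.5%), against a background of 73.9% of all protein-coding genes. The interval covers counting over genes only, and genes are not replicates. All 7 ephrin genes of the set and all 9 Notch genes had a start peak, as did 17 of 20 semaphorins and 8 of 9 plexins and neuropilins. The 4 genes without one were the secreted semaphorins SEMA3A and SEMA3D, the membrane-bound SEMA6D, and PLXNA4, a receptor for class 3 and class 6 semaphorins. When a peak at any listed start was accepted, all 45 genes had one, beside 88.0% of the 15868 genes paired with an Ensembl gene. Only starts that are the nearest to some peak are listed, and the members had more of them than other genes. This count is therefore not shown to set the members apart.

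The genes without a start peak were all long. Among genes of 100 kb or more, 12 of 16 members had a start peak, a share close to the background of 77.7% for genes of that length. Among members of 20 to 100 kb, 15 of 15 had one, beside 80.1% of genes of that length. Below 20 kb the counts were 14 of 14 members and 66.8% of genes. The high share over the 45 genes thus lay in the short and middle-sized members. The background holds expressed and silent genes alike, and expression was not measured.

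**Figure D1:**
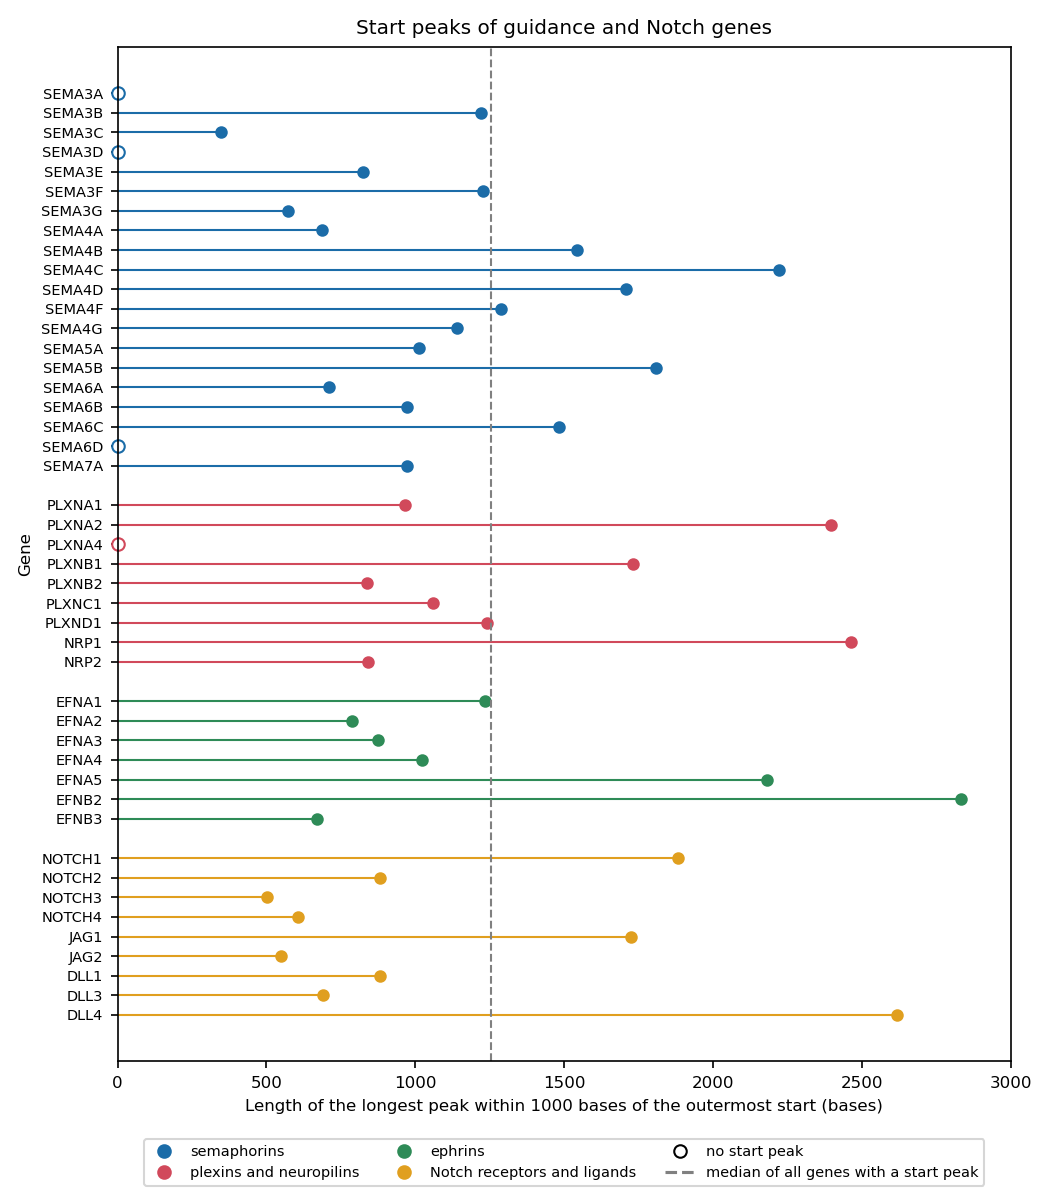
Length in bases (x axis) of the longest peak within 1000 bases of the outermost start of each of the 45 genes (y axis), coloured by family, with open circles for the 4 genes without a start peak and a dashed line at 1256 bases, the median of all protein-coding genes with a start peak. EFNB2 reached 2832 bases and SEMA3C 349, and 14 genes lay to the right of the line.

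Start peaks of these genes were frequent but not long. Their median length was 1021 bases (range 349 to 2832), against 1256 bases over all protein-coding genes, and 14 of 41 lay above that value. Yet 6 of the 45 genes had a start peak of 2000 bases or more, beside a background of 6.08%. These were SEMA4C, NRP1, PLXNA2, EFNA5, EFNB2 and DLL4, which come from all 4 families. The plot of start peak lengths shows this spread, with a few very long peaks and most others short.

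Among semaphorins the longest start peaks belonged to membrane-bound members. SEMA4C, a class 4 semaphorin that binds PLXNB2, had a peak of 2222 bases. It began 581 bases downstream of the outermost boundary and covered an inner RefSeq start 750 bases from it. SEMA5B, which carries thrombospondin repeats, had 1808 bases. SEMA4D, the ligand of PLXNB1, had 1709 bases around its start. The secreted class 3 genes had shorter ones, with a median of 826 bases and a maximum of 1227 at SEMA3F, against a median of 1288 in the membrane-bound classes. Class 3 also held 2 of the 3 semaphorins without a start peak, so that 5 of 7 class 3 genes and 11 of 12 membrane-bound genes had one. These lengths, from 5 and 11 genes, count only peaks near the outermost boundary. At inner starts, SEMA3C and SEMA3D had peaks of 2000 and 2056 bases. Class 3 genes were also longer, with a median of 179.85 kb against 49.95 kb, and the part of gene length was not tested. SEMA7A, the GPI-anchored semaphorin that signals through integrins and PLXNC1, had a start peak of 971 bases.

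The receptors had start peaks of 837 to 2464 bases. The longest lay at NRP1, the neuropilin shared by class 3 semaphorins and VEGF. It did not cover the RefSeq boundary of the gene but reached from 68 to 2531 bases upstream of it. There it covered 2 starts that the list names, 238 and 1595 bases upstream. PLXNA2, a class A plexin, had 2395 bases around its start, and PLXNB1, the SEMA4D receptor, had 1733 bases. NRP2, the other neuropilin, had a shorter peak of 841 bases that covered its start. PLXNA1 had a peak of 967 bases that reached 18 bases past its RefSeq start into the gene, although the list classes this peak as distal intergenic, and the nearest PLXNA1 start that the list names lies 5.5 kb inside the gene.

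EFNB2, the transmembrane ligand of EPHB4, had the longest start peak of the 45 genes. It spanned 2832 bases (chr13:106533860-106536691), from 1029 bases upstream of the start to 1802 downstream, and so holds the whole CpG-rich EFNB2 sequence printed above. EFNA5, a GPI-anchored ligand, had 2180 bases that reached only 31 bases past the start into the gene. EFNA1, the main ligand of EPHA2, had 1233 bases. The shortest of the family was EFNB3, with 669 bases lying wholly upstream of its start and given by the list to another gene.

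In the Notch family the longest start peak was that of DLL4, the Delta-like ligand of sprouting endothelium, with 2618 bases around the start. NOTCH1 had 1883 bases and the ligand gene JAG1 had 1725 bases. The other receptor genes had shorter peaks, 883 bases at NOTCH2, 607 at NOTCH4 and 503 at NOTCH3. All 4 receptor starts lay inside their peak. The peaks of DLL1 (883 bases) and DLL3 (691 bases) did not cover the boundary, and that of DLL1 also lay within 1000 bases of the start of FAM120B.

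At 4 genes the start peak also lay within 1000 bases of the start of another coding gene, so which start it marks cannot be told apart. They were SEMA3F, SEMA4C, EFNA4 (with the read-through gene EFNA4-EFNA3) and DLL1. The start itself lay inside a peak at 32 of the 45 genes. At the others with a start peak, the peak lay beside the start, as at SEMA4A, where it ended 809 bases upstream. Lengthening the window to 3000 bases added PLXNA4, which left 3 genes without a start peak. Requiring peaks of at least the list's median length of 539 bases added SEMA3C and NOTCH3 to those without one. The counts of shared starts, of starts inside a peak and under these settings were not taken over all protein-coding genes. None of them is therefore shown to be particular to these genes.

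Alternative starts were accessible at 33 of the 45 genes (73.3%), against a background of 40.2% of genes paired with an Ensembl gene. The members also had more such starts in the list, a median of 3 each against 1 over all paired genes. Counted per start, 71 of the 128 alternative starts had a peak within 1000 bases (55.5%), beside 11450 of 23658 (48.4%) over all paired genes. The list names a start only where it is the nearest one to some peak, so these shares describe named starts and not all transcripts. At 30 of the 33 genes an alternative start had a peak other than the start peak.

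The families differed in how many alternative starts they had and how many were accessible. Semaphorins had 39 of 66 with a peak, in 16 of 20 genes. Plexins and neuropilins had 19 of 34, in 7 of 9 genes. Ephrins had 5 of 8, in 4 of 7 genes, and in 2 of those 4 genes no such start lay more than 3000 bases from the outermost one. Notch genes had the lowest share, 8 of 20 (40.0%), in 6 of 9 genes. With between 7 and 20 genes a family, these shares are descriptions, and their differences were not tested.

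**Figure D2:**
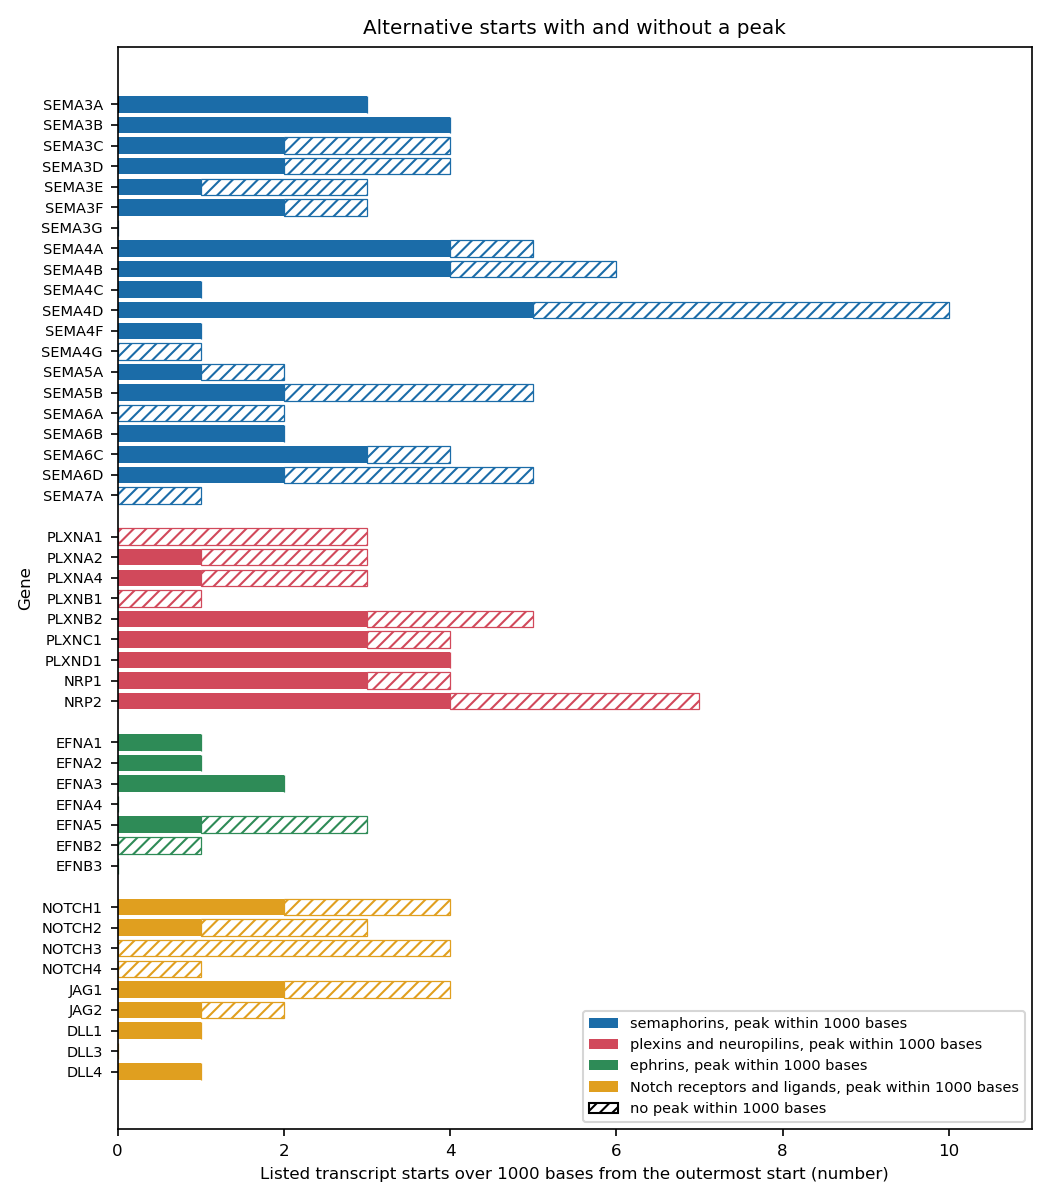
Number of alternative starts named by the list (x axis, count) for each gene (y axis), coloured by family, filled for starts with a peak within 1000 bases and hatched for those without. SEMA4D had 10 alternative starts, 5 of them with a peak, and all 4 of PLXND1 had one, while all 4 of NOTCH3 lacked one.

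All 4 genes without a start peak had an accessible alternative start. SEMA3A, the founding repulsive semaphorin (chr7:83955777-84492725), had a peak of 1156 bases at a start 120.4 kb inside the gene. A second peak, of 1025 bases, covered starts at 297.3 and 297.8 kb. SEMA3D (chr7:84995553-85250243) had a peak of 2056 bases over starts at 63.2 and 63.4 kb, and a peak of 530 bases at 208.3 kb. The 2056-base peak is longer than the start peak of any class 3 gene.

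SEMA6D, a class 6 semaphorin that binds PLXNA1 (chr15:47184089-47774228), lacked a start peak and had a peak of 1312 bases over starts at 533.3 and 533.4 kb. That sequence is the second SEMA6D line above, with 29 CpG in 250 bases against 9 at the outermost start. PLXNA4 (chr7:132123340-132648688) had its accessible start at 503.2 kb, near the far end of the gene, in a peak of 902 bases. Its CpG-rich alternative start at 72.2 kb, printed above, had no peak within 1000 bases.

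SEMA3C, a class 3 semaphorin, showed the same contrast within 3.3 kb. Its outermost start, with 2 CpG and 36.4% GC in the 250 bases before it, had a peak of 349 bases that did not cover it. The alternative start 3.3 kb inside the gene, with 39 CpG, lay in a peak of 2000 bases (chr7:80918557-80920556).

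Several genes had accessible starts at many places. SEMA4D had peaks at 5 of its 10 alternative starts, between 61.6 and 133.5 kb from its outermost start. SEMA3B, SEMA4A and SEMA4B followed among semaphorins, with 4 each. At SEMA4B, a class 4 semaphorin, the start at 16.4 kb lay in a peak of 1724 bases, longer than the 1544 bases at its outermost start. PLXND1, the receptor of SEMA3E, had peaks at 4 of 4, and NRP2 at 4 of 7. NRP2's nearest, at 3.3 kb, lay in a peak of 1055 bases, longer than its start peak.

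Among ephrins, EFNA3 had a peak of 2084 bases over alternative starts at 6.7 kb, beside 876 bases at its outermost start. EFNA5 had a peak of 2048 bases at a start 282.4 kb inside the gene, near its end. EFNA1 had 1, in a peak of 1203 bases. EFNA2 also had 1, but the peak near it was the gene's start peak of 789 bases, which covered neither start. In the Notch family, NOTCH1 and JAG1 had peaks at 2 of 4 each. NOTCH2 had a peak of 1482 bases at a start 82.6 kb inside the gene, longer than the 883 bases at its outermost start. DLL1 had its alternative start outside the RefSeq gene, 15.5 kb upstream, in a peak of 1200 bases. At NOTCH3 none of 4 alternative starts had a peak.

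Peaks in the gene body, start peaks that reach into it included, came to 443 over the 45 genes, with a median of 7 and a range from 1 to 54. The median rate was 1.34 peaks per 10 kb (range 0.228 to 4.01), against 0.928 over all protein-coding genes, and 32 of the 45 genes lay above that value. By family, the median was 2.3 in ephrins, 1.65 in Notch genes, 1.26 in plexins and neuropilins and 1.13 in semaphorins. Above 0.928 lay 7 of 7 ephrins, 8 of 9 Notch genes, 7 of 9 plexins and neuropilins and 10 of 20 semaphorins. Exact 95% intervals of these medians overlapped for every pair of families, from 1.05 to 3.49 in ephrins and 0.55 to 2.34 in semaphorins at the ends of the order. The order of semaphorins and the receptors turned with peaks of 539 bases or longer (0.855 against 0.636 per 10 kb) and with rows listed to the gene (1.99 against 1.40). The line carries gains and losses of chromosomes. DNA copy number was not measured, and its part in these rates was not tested.

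The 2 families with the shortest genes had the highest rates. Ephrin genes had a median length of 8.7 kb and Notch genes 29.2 kb, while semaphorins had 49.95 kb and plexins and neuropilins 116 kb. A short gene with 1 start peak has a high rate. When peaks within 1000 bases of any start were left out, ephrins and the receptors both had a median of 0.918 per 10 kb, Notch genes 1.03 and semaphorins 0.581, against 0.351 over all genes. That background was 0.0 below 20 kb, 0.475 at 20 to 100 kb and 0.466 at 100 kb or more. Members of these lengths had 0.806, 0.921 and 0.612. Within the ephrins, 3 of the 5 ephrin-A genes then had 0 peaks left.

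**Figure D3:**
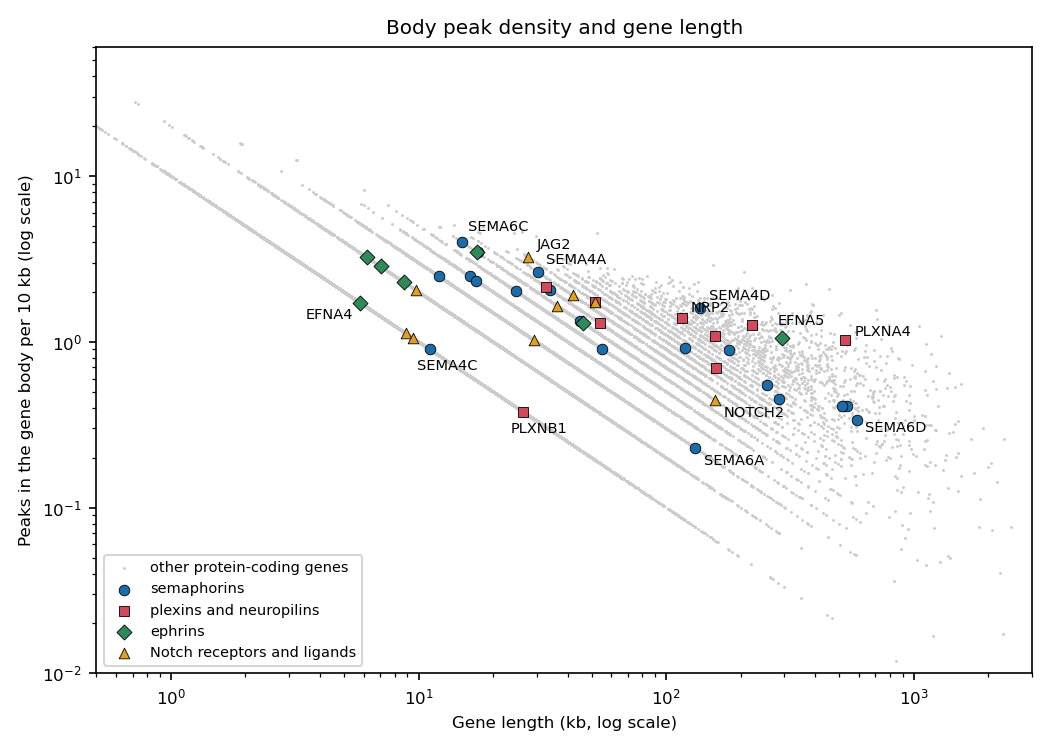
Body peaks per 10 kb (y axis, log scale) against gene length in kb (x axis, log scale) for the 45 genes, coloured by family, over 16802 protein-coding genes with a body peak in grey. JAG2 (27.8 kb, 3.24 per 10 kb), SEMA4A (30.4 kb, 2.63) and SEMA4D (137 kb, 1.60) stand near the upper edge at their length, and SEMA6A (131 kb, 0.228) and PLXNB1 (26.5 kb, 0.378) low.

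Below 100 kb, most members held more peaks than the median gene of like length, start peaks included, most clearly in the middle range. Of the 15 members of 20 to 100 kb, 14 lay above the median of 0.834 per 10 kb for genes of that length, with a median of 1.74. The exception was PLXNB1, whose only body peak was its start peak. Below 20 kb, 11 of 14 members lay above 1.56, with a median of 2.41. At 100 kb or more, 9 of 16 lay above 0.561, with a median of 0.790, which is near an even split.

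JAG2, a Jagged ligand of Notch receptors (chr14:105140995-105168776), was the densest for its length. It held 9 peaks in 27.8 kb, or 3.24 per 10 kb, and 0.255% of protein-coding genes of 20 to 100 kb had as many or more per length. None of these peaks was long, with a median of 364 bases and a maximum of 881, and 2 of them carried another gene's identifier. The 250 kb on each side of JAG2 were also rich in peaks, at 1.80 per 10 kb. DLL4 followed in the family with 2.05 per 10 kb from 2 peaks in 9.73 kb. NOTCH3, a receptor of vascular smooth muscle, had 1.91 from 8 peaks.

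Among semaphorins the highest rates were those of SEMA6C, SEMA3B and SEMA4A. SEMA6C held 6 peaks in 14.9 kb (4.01 per 10 kb), against 1.16 in its flanks. SEMA3B, a class 3 gene in a region of chromosome 3 often lost in lung cancer, held 6 in 17.3 kb (3.46). SEMA4A held 8 in 30.4 kb (2.63), and 1.29% of genes in its length range reached that rate. SEMA4D was the densest long gene, with 22 peaks in 137 kb (1.60), a rate reached by 2.99% of genes of 100 kb or more.

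PLXNB2, PLXND1 and NRP2 had the highest rates among the receptors. PLXNB2, a receptor of class 4 semaphorins, had 7 peaks in 32.7 kb (2.14 per 10 kb). PLXND1 had 9 in 51.5 kb (1.75), and NRP2 had 16 in 116 kb (1.38). NRP2 stood out from its surroundings, since its flanks held 0.480 per 10 kb. Among ephrins the highest were EFNA2 with 3.49, EFNB3 with 3.24 and EFNA1 with 2.85 per 10 kb. EFNA2 kept 5 of its 6 body peaks when those near starts were left out, EFNB3 kept 1 of 2 and EFNA1 0 of 2.

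Long genes at the other end held few peaks. SEMA6A, a class 6 semaphorin that binds PLXNA4, had 3 peaks in 131 kb (0.228 per 10 kb), fewer per length than its flanks at 0.460. SEMA6D had 0.339 and SEMA3A and SEMA5A 0.410 and 0.411. NOTCH2 had 7 peaks in 158 kb (0.443), and 6 of them lay in the 3' part of the gene beyond its midpoint. Across the 45 genes the body was denser than the 250 kb on either side at 37 and sparser at 8. This was not counted over all protein-coding genes, so the split is not shown to be particular to these genes. Bodies include start peaks, while flanks hold other genes and gaps between them.

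**Figure D4:**
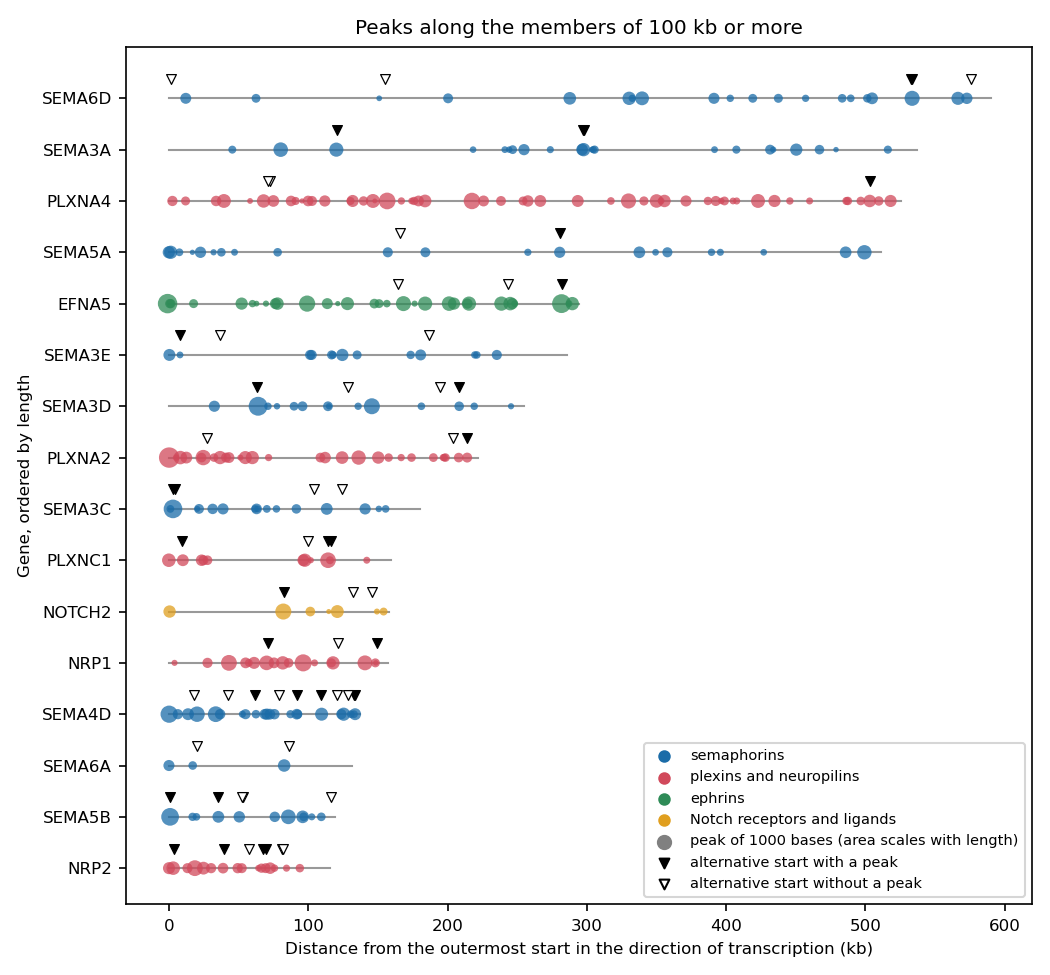
Positions of body peaks along the 16 genes of 100 kb or more, as distance from the outermost start in kb (x axis), 1 gene per row (y axis), with points coloured by family whose area scales with peak length, and triangles for alternative starts inside the gene, filled where a peak lay within 1000 bases. PLXNA4 carried 54 peaks along its length, while SEMA3A had a stretch of 97.5 kb with none.

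Along the longest genes, the peaks of PLXNA4, PLXNA2, EFNA5 and SEMA5A fell in similar numbers before and beyond the midpoint, while those of SEMA6D and SEMA3A did not. PLXNA4 had 54 peaks in 525 kb, the most of any member, with 29 before the midpoint and 25 beyond it. Of these, 22 carried the identifier of another gene whose transcript start was nearer. EFNA5 had 31 peaks in 294 kb, 10 of them of 1000 bases or more. PLXNA2 had 28 in 222 kb, and all carried its own identifier. In SEMA6D 15 of 20 peaks lay beyond the midpoint, on the side of its accessible alternative start, and 11 carried another gene's identifier. In SEMA5A, a class 5 semaphorin that binds PLXNB3 and proteoglycans, 12 of 21 did. SEMA3A had 22 peaks, 8 before and 14 beyond the midpoint, with 1 within 50 kb of its outermost start and 5 in the 20 kb from 296.6 kb on, which hold its starts at 297.3 and 297.8 kb. The plot of long genes shows these patterns side by side.

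The class 3 genes on chromosome 7 lay in sparse surroundings. The gap of 306.6 kb between SEMA3E and SEMA3A held 10 peaks and that of 502.8 kb between SEMA3A and SEMA3D held 14, or 0.326 and 0.278 per 10 kb. No protein-coding gene lay in either gap. The class 3 pair on chromosome 3 contrasted with them, as the 71.2 kb between SEMA3F and SEMA3B held 15 peaks (2.11 per 10 kb) and 3 coding genes. The ephrin genes EFNA4, EFNA3 and EFNA1 on chromosome 1 were separated by 9.3 kb with 3 peaks and 40.3 kb with 5.

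Of the 468 rows listed to the 45 genes, 102 lay outside the gene body, and 77 peaks inside the bodies were listed to other genes. SEMA4D had 10 rows upstream of its start, as far as 51.2 kb. PLXNA1 had 8 downstream of its end, as far as 71.6 kb, and NRP2 had 8 on both sides, as far as 38.0 kb. Such a row says only that no other annotated start was nearer, and does not assign the peak to the gene.

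By the class the list gives each peak, the pooled rows of the Notch genes differed from those of the other families. Of their 45 rows, 55.6% were promoter peaks, 15.6% exon peaks and 11.1% intron peaks. The shares in the whole list were 30.4%, 2.74% and 34.1%. Semaphorins had 36.4% promoter and 42.7% intron peaks, ephrins 32.8% and 49.2%, and plexins and neuropilins 31.4% and 41.0%. These shares pool rows over genes, so genes with many rows weigh most. EFNA5 alone gave 37 of the 61 ephrin rows, and the contrast is not shown for single ephrin genes. The 7 exon rows of the Notch genes are few, and no test was run.

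CpG content of the promoter went with the presence of a peak, among these genes as among all others. Starts with a peak within 1000 bases had a median of 24 CpG in the 250 bases before them (50 starts), and those without had 7 (9 starts). Over protein-coding genes the medians were 20 and 4. Of the members' starts with 16 CpG or more, the median of all protein-coding promoters, 33 of 35 had a peak, and of those below 17 of 24. The shares over all protein-coding starts were 90.9% and 54.2%. The 2 CpG-rich starts without a peak were those of PLXNA4 at 72.2 kb and of SEMA3B at 7.4 kb. This SEMA3B start is given by RefSeq and not named by the list, so it is not among the alternative starts counted above.

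**Figure D5:**
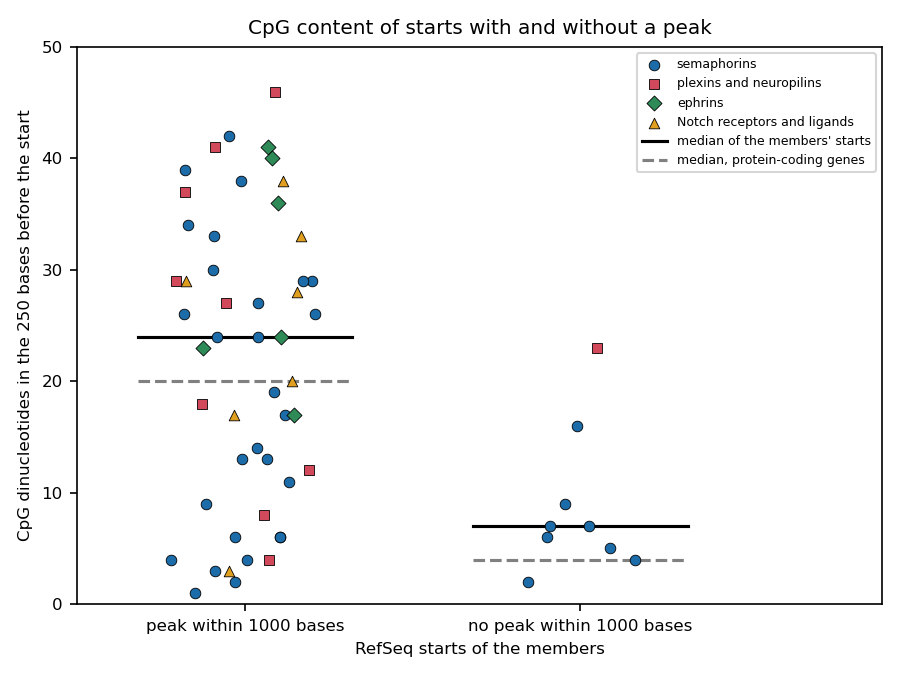
CpG dinucleotides in the 250 bases before each of 59 RefSeq starts of 38 members (y axis, count), split into starts with and without a peak within 1000 bases (x axis), coloured by family, with solid lines at the medians of these starts and dashed lines at those of all protein-coding genes. Starts with a peak had a median of 24 CpG and those without 7.

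CpG content also differed between families and within genes. Ephrin promoters had a median of 30 CpG, Notch 28, plexin and neuropilin 25 and semaphorin 13. The semaphorin set holds more alternative starts, many of them CpG-poor, such as those of SEMA4A with 4 to 7. PLXNA1 had the most CpG of the 59, with 46, and SEMA3E's alternative start at 7.7 kb had the fewest, with 1. NOTCH4, the receptor of vascular endothelium, had an accessible start with 3 CpG, against 28 to 33 at the other Notch receptors, as its sequence above shows.

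Motifs were searched on both strands of the same 250 bases. The AP-1 motif TGANTCA occurred in 2 of the 59 promoters (3.39%), beside 5.35% of promoters of protein-coding genes and 6.57% of all RefSeq promoters in the table. The match in NOTCH4 lay 18 bases before the start. The match in PLXNC1, the receptor of SEMA7A, lay 91 bases before an alternative start 114.0 kb inside the gene, in a peak of 1408 bases. The RBPJ motif GTGGGAA occurred in none of the 59, beside 5.27% and 5.43%. The E-box CACGTG was found in 3 (5.08%, beside 7.37% and 6.34%) and TATAAA in 2 (3.39%, beside 9.0% and 10.7%). Among starts with a peak, TGANTCA was found in 4.0% of members and 4.69% of protein-coding promoters, and TATAAA in 4.0% and 5.67%. None of the motifs searched contains another, and a match describes letters, not a bound factor.

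Genes that act with these families were examined by lists. Of 14 Eph receptors, the partners of ephrins, 13 had a start peak, and EPHA8 had none. EPHA2, the receptor of EFNA1, had the highest rate among those of at least 20 kb, with 9 peaks in 31.7 kb (2.84 per 10 kb). Of 33 genes of Notch processing, nuclear complex and targets, 30 had a start peak. The exceptions were the ubiquitin ligase gene DTX2, the target gene HES5 and the fringe gene LFNG, although LFNG had peaks at 4 alternative starts. HES5 had no body peak. Of 22 genes of semaphorin signal transduction 19 had a start peak, and CRMP1, DPYSL3 and DPYSL4, which encode collapsin response mediators, had none. DPYSL3 had peaks at 3 alternative starts, and the related genes DPYSL2 and DPYSL5 had start peaks of 1518 and 854 bases. The shares were 92.9% (exact 95% interval 66.1 to 99.8), 90.9% (75.7 to 98.1) and 86.4% (65.1 to 97.1). The background of 73.9% lay inside the interval of the first and the last list and just below that of the Notch list. These intervals cover counting over genes only, genes are not replicates, and the lists were chosen with earlier results known. No list is thereby shown to differ from the background.

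Below 20 kb, alternative starts with a peak were found at 9 of 14 members, beside a background of 26.5%. At 20 to 100 kb they were found at 9 of 15, beside 44.4%. Among genes of 100 kb or more, they were found at 15 of 16 members, beside a background of 58.5%. The exception at 100 kb or more was SEMA6A. A gene with more named starts has more chances of a peak at any of them, and the share per start was not taken at these lengths. Over all lengths, the shares per start were 55.5% in members and 48.4% in all paired genes. Start peaks in lists of cell type markers were checked as well. All 6 MDA-MB-231 markers and 5 of 6 luminal markers had one, with ESR1 the exception, while 0 of 5 leukocyte and 0 of 3 endothelial markers with a known strand did. With any listed start accepted, 6 of 6 luminal markers, 1 of 5 leukocyte markers (PTPRC) and 2 of 3 endothelial markers (CDH5 and TIE1) had a peak. The leukocyte markers CD2 and CD79A were paired with no Ensembl gene, so they had no listed start that could add a peak. Of 4 neuron markers, 3 had a start peak and 4 had a peak at any listed start. A start peak is not expression, so neither the markers nor the guidance genes are shown to be expressed.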

How the data were processed

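ATAC-seq was performed on 5 ARID1A knockout and 5 control libraries. Per the submitters' processing notes, the tools were Bowtie2 2.3.5.1 for alignment and MACS2 2.2.6 for peak calling, on hg38. Not given in the sources used here, and able to change the number and edges of the peaks, are the caller's threshold, treatment of duplicates, Tn5 shift, merging across libraries and annotation. The deposited list holds 161934 peaks in 17 columns, which per the file headers give positions, lengths and distances in bases, the nearest transcript and a class, with no counts, score or fold. Depth is therefore unknown.

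The RefSeq table (GRCh38.p14, the same assembly as hg38) gave gene boundaries. It pairs no Ensembl identifiers with these genes, so each gene was paired with the Ensembl gene of the same strand whose listed transcripts overlapped it best, at an overlap of at least 0.3 of their union. All 45 members were paired, 37 at 0.8 or more and the lowest at 0.364. Strand came from the list's transcripts or the promoter table, and 989 of 19970 coding genes without one were left out. Rates are peaks overlapping the gene per 10 kb. Intervals of shares are exact binomial at 95%. On 1000 simulated intervals, the peak lookup was tested against a brute-force count, with the same answer for 1000. Members and lists were chosen with earlier results of these data known. Named in full in each family were genes without a start peak, the 3 with the longest start peak, the 3 with the highest rate and the 2 with most accessible alternative starts. Further genes were picked with their values in view. In other lists, the rule was up to 3 genes with the highest rate and up to 3 without a start peak. Python 3.11.15, numpy 2.4.6, pandas 2.3.3, scipy 1.17.1 and matplotlib 3.10.9 were used.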

Additional observations from a re-analysis of the deposited data

How the results depend on the processing

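No paired analysis was possible because the deposited peaks carry no values for single libraries. Leaving out replicates was not possible for the same reason, and the limit set by depth is unknown. Of 40 alternatives to 12 family values, 36 gave a value within 1.5 times a count or inside the interval of a median. Some of those 36 could not have gone further. A wider window or any listed start can only raise a count of start peaks, and those counts lay too near their family totals. The interval of the ephrin median, 1.05 to 3.49, was the full range of that family. The remaining 4 alternatives moved further, and for none was a cause tested. With peaks of at least the median length, plexins and neuropilins had 0.636 peaks per 10 kb instead of 1.26. Ephrins then had 1.16 instead of 2.3, Notch genes 1.03 instead of 1.65 and semaphorins 0.855 instead of 1.13, inside the wide intervals of their medians. Ephrin genes with an accessible alternative start fell from 4 to 2 when starts had to lie over 3000 bases away. Without peaks near any start, ephrins had 0.918 per 10 kb instead of 2.3. With rows listed to the gene, Notch genes had 2.15 per 10 kb instead of 1.65. Semaphorins had 1.99 instead of 1.13 by that count, inside the wide interval of their median.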

Other observations

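Of 18 Slit, Robo, netrin and RGM genes with a known strand, 11 had a start peak (61.1%, exact 95% interval 35.7 to 82.7). The share of all protein-coding genes, 73.9%, lay inside that interval, which covers counting over genes only. At any listed start 16 of 18 had a peak, and 11 of the 18 genes were 100 kb or longer. DCC, the netrin receptor, had no start peak and held 2 body peaks in 1196 kb. It was paired with no Ensembl gene, so it had no listed start that could add a peak. The netrin gene NTN1 lacked a start peak and held 26 peaks in 241 kb, and NTN5 had 1 body peak. ROBO1, ROBO3, SLIT3 and UNC5D also lacked a start peak, and each had 1 or 2 alternative starts with a peak. Among those of at least 20 kb, the repulsive guidance genes RGMB (2.51 per 10 kb) and RGMA (2.41) and the netrin receptor UNC5A (1.99) had the highest rates.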
